A study of Mus musculus with 12 samples.

Results

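Muscle progenitors recovered from host muscle after transplantation were compared with native satellite cells of adult muscle, gene by gene, in 6 of the 12 RNA-seq libraries of the series, 3 in each group. The comparison took in the 12699 of 23284 gene symbols that reached at least 1 FPKM (fragments scaled to transcript length and to mapped fragments) in at least 3 of the 12 libraries. The transplanted cells had been derived from pluripotent stem cells by way of a teratoma, a tumour of mixed tissues. They had been sorted from the teratoma for the adhesion molecules α7-integrin and VCAM, transplanted, and sorted again for the same antigens from tibialis anterior muscle after 1 month. The adult cells came from whole hindlimbs of male mice 8 weeks old and carried the same α7-integrin and VCAM phenotype, and all cells were negative for CD31 and CD45, antigens of endothelial cells and leukocytes. Both groups are labelled with the strain 129P2/OlaHsd. No label gives a host strain, a stem cell line, a donor tag or pooling of animals, and the protocols do not say whether satellite cells of the host were kept out of the transplant sort. The muscle sampled (1 leg muscle against all hindlimb muscles), the time after surgery and the origin of the cells differ together between the groups, so they cannot be told apart. The 3 libraries of a group are called biological replicates in the design, without saying that each came from its own animal, and the p-values then measure only how much these libraries vary, which may be technical. Libraries from 3-week-old teratomas are quoted beside some genes, because the transplanted cells came from such teratomas. Those from whole embryos at E14.5 are quoted only for a few summed levels. Both sets of libraries entered the gene filter, the rescaling of values, the shared estimate of spread and the plots.

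Satellite cells lie between the muscle fibre and its basement membrane and are the stem cells from which adult muscle repairs itself. At rest they express Pax7, a transcription factor of the lineage, and hold back Myod1, which commits cells to muscle, and Myog, which drives terminal differentiation. Notch signalling keeps them from differentiating, and after injury they leave rest, divide, build ribosomes and interact with the fibroblasts and matrix around them. Enzymatic isolation is known to move such cells out of rest within hours.

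Expression was summarised per gene in FPKM, and the depth of each library was unknown. A difference is given as transplant minus adult in mean log2(FPKM + 1) with its standard error (SE), which understates the change of low genes, and p-values come from limma with Benjamini-Hochberg adjustment over all tested genes. Libraries correlated with Pearson coefficients of 0.903 to 0.931 within the transplant group, 0.939 to 0.950 within the adult group and 0.764 to 0.823 between them (log2 values across genes, which are not independent replicates). Small and ribosomal RNA made up 60.8% to 72.1% of the summed FPKM in transplant libraries and 85.3% to 98.2% in adult ones. In transplant libraries 10738 to 10832 genes reached 1 FPKM, against 9495 to 9624 in adult ones. This difference in library make-up lies along the groups, and its part in the results was not tested beyond rescaling the values. In bulk RNA, fewer cells of a type and less RNA per cell cannot be told apart.

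At an adjusted p under 0.05, 5612 genes (44.2% of those tested) differed, 3462 of them higher (27.3%) and 2150 lower (16.9%) in transplanted cells. The median over all tested genes was 0.23, and the 2 groups of libraries did not overlap for 57.6% of genes, so the counts below are read against a background in which change was common. The split between higher and lower depended on scaling. Median-ratio scaling gave 3050 higher and 2830 lower with a median of 0.09, and quantile normalization 2519 and 2721 with a median of -0.02. Leaving out any of the 6 libraries gave between 4570 and 4970 genes. The sort antigens themselves were present in both groups. Itga7, the gene of α7-integrin, stood at 34.9, 39.0 and 55.5 FPKM in transplant libraries and 61.6, 61.8 and 62.6 in adult ones (-0.54, SE 0.17, adjusted p = 0.021), a call that was lost under quantile normalization and without any one library other than transplant replicate 3. Vcam1, at 68.7 to 91.6 against 83.9 to 117, did not pass the test. Of the excluded antigens, Pecam1 (CD31) was at 1.42 to 2.36 against 2.15 to 4.80, and Ptprc (CD45), below the filter, at no more than 0.308.

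The genes with the largest falls included several that were abundant in every adult library. Fam132b (also Erfe, chromosome 1 from 91366430 to 91374217 in mm10), which encodes the hormone erythroferrone, was at 2.39, 1.34 and 16.1 FPKM after transplantation and 390, 350 and 391 in adult cells, a difference of -6.20 (SE 0.55, adjusted p = 9.1e-06). Procr, the protein C receptor (chromosome 2 from 155751117 to 155755471), was at 1.48, 1.68 and 3.97 against 205, 162 and 92.4. Gal, the gene of the neuropeptide galanin (chromosome 19 from 3409915 to 3414544), was at 9.06, 5.78 and 29.1 against 483, 412 and 471. In all 3 genes transplant replicate 3 was the highest of its group and still far below the lowest adult library. Adarb1, an RNA-editing deaminase, changed by -3.81 (SE 0.28), Arl4d, a small GTPase, by -3.87 (SE 0.44), and Blnk, an adaptor known from B cells, by -3.60 (SE 0.25).

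Some adult genes were close to absent both before and after transplantation. Grb10, an imprinted inhibitor of insulin and IGF receptors (chromosome 11 from 11930508 to 12038683), was at 0.234, 0.502 and 0.569 in transplant, 1.30, 0.788 and 1.16 in teratoma and 43.4, 38.9 and 46.0 in adult libraries. The purine salvage gene Hprt was at 2.02, 0.323 and 0.152 in transplant and 57.3, 43.5 and 32.7 in adult libraries, with teratoma values of 0.579, 1.69 and 1.45. The mean in transplanted cells was 1.02% of the adult mean for Grb10 and 1.87% for Hprt. Neu2, a sialidase, was listed at 0 in all transplant and teratoma libraries and at 11.1, 13.8 and 17.1 in adult ones. C7, the terminal complement component, was at 0.252 to 1.54 against 38.8 to 50.3. All 4 genes were thus well expressed in native cells and low or at 0 in cells before and after transplantation. A share of host cells in the transplant sort was not measured by these libraries.

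Among the largest rises were secreted and matrix proteins. Ptn, the growth factor pleiotrophin (chromosome 6 from 36714929 to 36810220), was at 218, 150 and 118 FPKM against 4.38, 2.25 and 4.81 (5.08, SE 0.26, adjusted p = 4e-07), and its teratoma level of 110 to 155 did not differ from the transplant level by the test. Igf2, the fetal growth factor (chromosome 7 from 142650766 to 142666816), was at 749, 735 and 1110 against 42.0, 40.7 and 53.4, below the teratoma values of 1606 to 1786 (adjusted p = 0.0033). Fibin, Epyc, Cilp and Pamr1, all genes of secreted proteins, rose by 4.29 to 4.66, and each was also higher than in teratoma cells. Ifi27l2a, an interferon-induced gene, was listed at 0 in every adult library and at 34.1, 48.7 and 22.7 after transplantation. A zero can be a failed estimate in this table: 15 genes were listed at 0 in all adult libraries with at least 5 FPKM in all transplant ones, and 7 the other way round. They include genes that every cell uses, such as Idh3b, a citric acid cycle subunit (0 in adult, 25.8 to 28.0 in transplant), and Smu1, a splicing factor (0 in transplant, 17.2 to 19.2 in adult). Such zeros fell on 4 of the 15 most raised and 4 of the 15 most lowered genes.

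**Figure D1:**
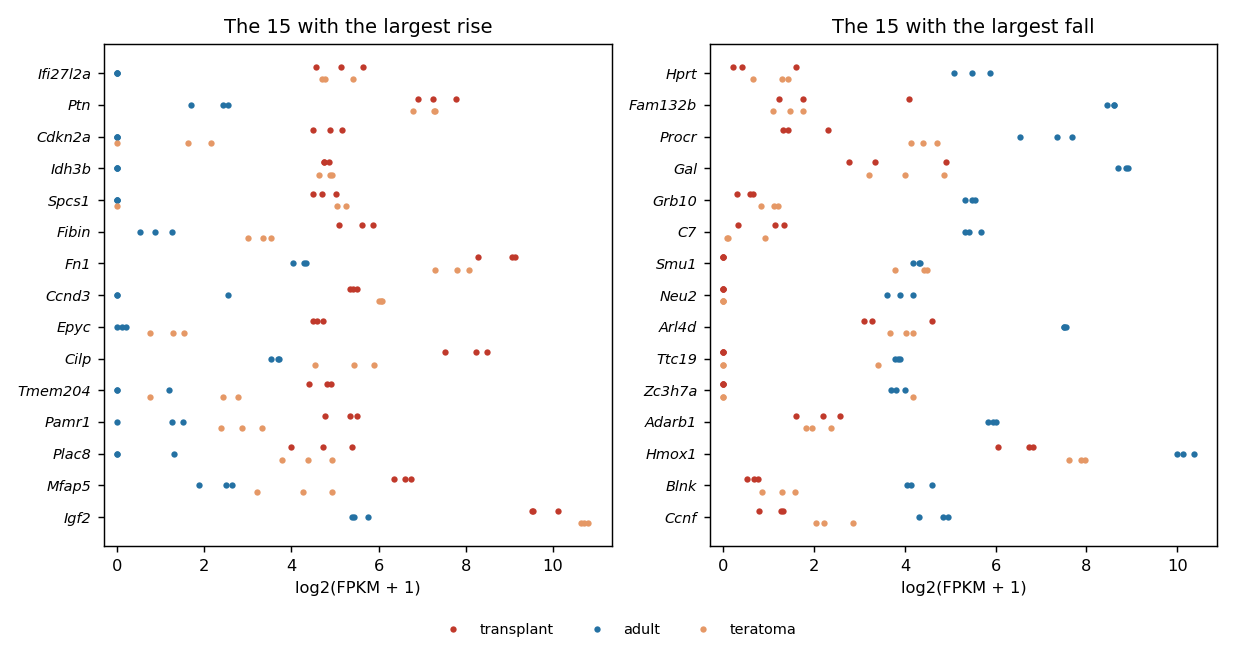
The 15 genes with the largest rise (left) and fall (right) in transplant against adult, by gene; each point is 1 library and the x axis is log2(FPKM + 1). Transplant and adult points do not overlap for any gene because the genes were chosen that way, and teratoma points are added for reference, lying with transplant for Ptn, Hprt and Grb10 and between the groups for Procr.

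The muscle regulators did not move one way. Of 18 regulators tested, 5 rose, 4 fell and 9 did not pass, with a median of 0.42. The share that rose, 27.8%, was close to the 27.3% over all genes, and 22.2% fell against 16.9%. The median was 0.08 under quantile normalization and 0.07 among genes with a mean of 5 FPKM or more. Beside the genes described here, Tcf12 rose and Msc, Mef2a and Mef2d fell, named after their values were seen. Pax7 was at 39.8, 32.3 and 54.8 FPKM in transplanted cells and 8.24, 9.02 and 10.1 in adult cells, 4.64-fold on the means (2.07, SE 0.19, adjusted p = 1.2e-05). Every transplant library lay above every adult one. Myod1 ran the other way, at 29.8, 39.1 and 56.1 against 423, 442 and 343, which is 9.67-fold lower (-3.28, SE 0.29, adjusted p = 9.1e-06). Myog was at 42.9, 32.6 and 46.6 against 4.08, 4.03 and 1.97, 12.1-fold higher (3.28, SE 0.38, adjusted p = 4.7e-05). Pax7 was thus higher together with the differentiation factor Myog, and the commitment factor Myod1 was lower. Myf5, the determination factor that marks most satellite cells, was at 52.6 to 68.1 against 38.1 to 47.1 and was not called (adjusted p = 0.096), although the groups did not overlap. It was called higher under quantile normalization (adjusted p = 0.024) and in the fit of the 2 groups alone (adjusted p = 0.042). Mef2c, a partner of the muscle regulators in differentiation, rose by 1.90 (SE 0.25), and Barx2, a homeobox factor of muscle growth, by 2.90 (SE 0.31). Against the teratoma cells, Pax7 was higher by 0.82 (adjusted p = 0.010), while Myod1 and Myog did not pass the test.

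The nuclear factor I family of transcription factors had 3 of 4 members higher, Nfib the least (0.71, SE 0.12), and none lower. Its member Nfix is known to switch muscle from embryonic to fetal genes. Nfix was at 94.2, 79.6 and 97.7 against 32.0, 39.8 and 35.6, and Nfic at 43.1, 38.5 and 42.6 against 9.41, 10.7 and 9.72, with no overlap between groups. Of 18 satellite cell surface genes, 7 rose and 4 fell (median -0.19, 0.08 under quantile normalization). The 4 falls became 8 under median-ratio scaling and 2 without any one adult library, without transplant replicate 2 or with a pseudocount of 0.1. The heparan sulfate proteoglycans moved apart. Sdc3 was at 30.9, 39.8 and 27.2 against 3.57, 1.66 and 1.33 (3.45, SE 0.26), and Sdc4 at 50.2, 65.4 and 69.6 against 339, 336 and 319 (-2.42, SE 0.27). Fgfr1, a receptor for the growth factors that Sdc4 helps to bind, was lower at 78.7 to 89.1 against 274 to 320. Cdh15, the M-cadherin that joins satellite cells to fibres, was higher at 73.0, 54.9 and 87.9 against 22.2, 27.4 and 29.3.

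**Figure D2:**
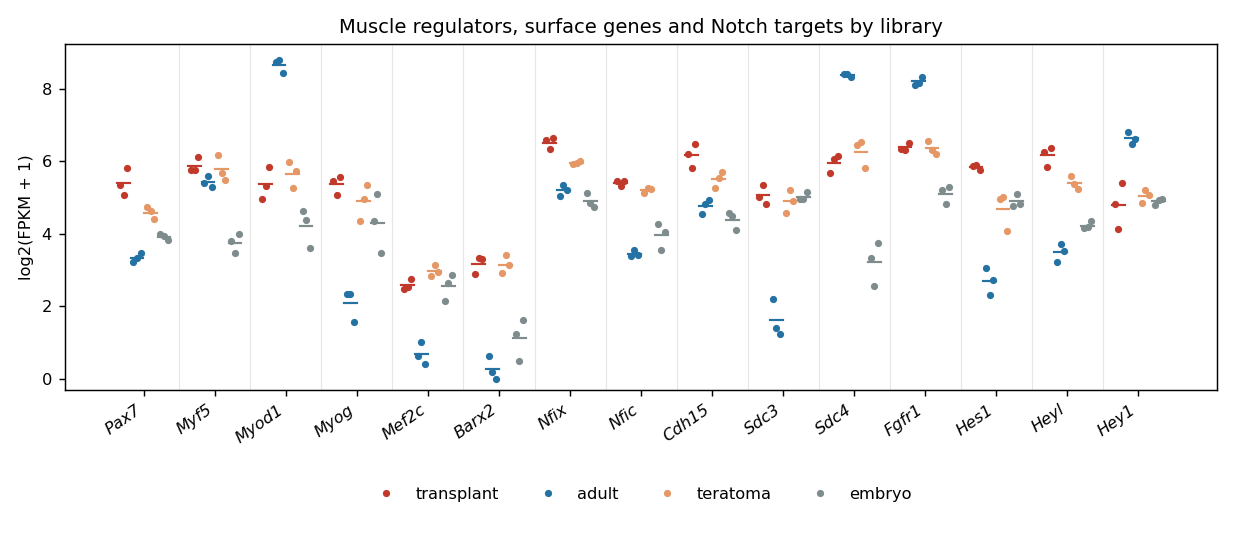
Expression of 15 regulators, surface genes and Notch targets in the 12 libraries, with log2(FPKM + 1) on the y axis; points are libraries, coloured by group, and bars are group means. Pax7, Myog, Hes1 and Heyl are highest in transplant, Myod1, Sdc4, Fgfr1 and Hey1 are highest in adult, and Myf5 lies close in both.

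Notch targets separated by member. In the pathway 8 of 24 genes rose (33.3% against 27.3% of all genes) and 3 fell (12.5% against 16.9%), with a median of 0.38. The 8 became 5 without adult replicate 1 or under quantile normalization. The repressor Hes1 was at 56.9, 58.4 and 53.1 against 7.34, 3.92 and 5.65 (3.14, SE 0.26). Heyl was at 75.7, 56.7 and 81.2 against 8.36, 12 and 10.5 (2.67, SE 0.18). Hey1, a related target, was lower at 27.4, 16.6 and 41.4 against 112, 88.4 and 97.4 (-1.85, SE 0.25). Hes1 and Heyl were also higher than in teratoma cells, by 1.15 and 0.76. Lfng, which modifies Notch receptors, rose by 1.61 (SE 0.45), a call lost under quantile normalization.

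Genes linked to rest were split. The lists of activation and commitment genes and of sarcomere genes held more rises than falls, although the commitment factor Myod1 was lower. Of 35 quiescence genes, 14 rose and 10 fell (median 0.23, the same as over all genes). Among them Spry1, a feedback inhibitor of FGF signalling needed for the return to rest, was at 106, 77.9 and 106 against 35.4, 40.2 and 30.0, Gas1 rose by 2.89 (SE 0.17), and Chrdl2, a BMP inhibitor, fell from 68.6 to 111 in adult libraries to 11.4 to 30.9. Of 23 activation and commitment genes, a list without Myod1, 12 rose and 1 fell (median 1.05). Hes6, which promotes differentiation, was at 12.1 to 14.3 against 0.317 to 1.23, and Gm7325, the fusion factor myomixer, at 5.16, 6.69 and 2.07 against 0, 0 and 0.259. The exception was Cdh4, at no more than 0.0246 against 3.02 to 5.41. Sarcomere genes of the embryonic and slow fibre sets rose in 6 of 11 and fell in 1, the tropomyosin Tpm3, and those of the fast and common sets rose in 16 of 23 and fell in 1 (medians 1.24 and 0.96). The fall of Tpm3 was lost without adult replicate 1, adult replicate 3, transplant replicate 1 or transplant replicate 3. The summed level of the embryonic and slow list was 102 to 125 FPKM in transplant and 107 to 117 in adult libraries. That of the fast and common list, which includes Des, was 283 to 347 against 332 to 378. Neither sum was thus clearly higher after transplantation, although more genes rose than fell. Levels stayed modest. Mylpf, a fast myosin light chain, was at 13.8, 14.1 and 16.7 against 0.128, 0.767 and 0, and Actc1, the cardiac actin of developing muscle, at 11.9, 13.7 and 21.3 against 0.132, 1.01 and 0, still below teratoma. The exception in the fast and common set was the intermediate filament gene Des, at 81.4, 84.0 and 114 against 238, 285 and 265. At the neuromuscular junction, 6 of 15 genes rose and 1 fell (4 under median-ratio scaling). Among the rises were the acetylcholine receptor subunits Chrna1 (1.58, SE 0.27) and Chrng (1.84, SE 0.39). Musk, the receptor kinase that builds the junction, was lower at 6.05, 10.1 and 13.9 against 29.8, 37.1 and 33.8, without overlap, though with a pseudocount of 0.1 its adjusted p was 0.054.

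Developmental marks were uneven. In the IGF axis 9 of 18 genes rose and 4 fell (median 0.85). Beside the ligand Igf2, the binding proteins Igfbp3 (115, 87.8 and 146 against 11.1, 9.72 and 7.34) and Igfbp4 (513, 463 and 303 against 37.8, 32.4 and 32.3) were higher, and Grb10 was lower. Of 31 imprinted genes, 10 rose (32.3% against 27.3% of all genes) and 8 fell (25.8% against 16.9%), with a median of 0.09. The noncoding RNAs Rian and Mirg of the maternal Dlk1-Meg3 cluster fell by 1.97 and 2.23, while Dlk1, the paternal gene of that cluster and a Notch family ligand, was at 10.5, 3.49 and 5.44 against 0.76, 0.492 and 2.03, far below 132 to 160 in teratoma. Regulators of the fetal program were not raised: by limma none of 7 oncofetal genes rose (0 at an unadjusted p under 0.05) and 2 fell, with Hmga1, a chromatin protein of growing cells, at 4.82, 7.34 and 7.55 against 66.4, 82.5 and 49.8. Of 5 pluripotency genes tested, only Klf2 rose, a factor that is also an immediate early gene.

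Factors of limb and head position rose, while few Hox genes were called. Of 16 factors of limb and head position, 10 rose and none fell by limma (1 at an unadjusted p under 0.05), with a median of 0.97. Without transplant replicate 1 the rises numbered 7, and 1 fall was called under median-ratio scaling, quantile normalization or the fit of the 2 groups alone. Meox1, a homeobox factor of the somite, was at 18.9, 22.7 and 9.94 against 0.0438, 0.648 and 0.573, and its relative Meox2 at 18.5, 17.5 and 13.5 against 4.90, 3.49 and 1.31. Both were also higher than in teratoma cells. Isl1, a factor of pharyngeal and hindlimb mesoderm, was at 3.47, 4.25 and 6.78 against 0, 0.0526 and 0, and Tcf21, of head muscle progenitors and fibroblasts, at 3.41, 4.81 and 3.41 against 0, 0.142 and 0. Hox genes, which mark position along the body and limb, were low in both groups. Of the anterior Hox genes 1 of 12 rose (none without transplant replicate 1), and of the central ones 1 of 9 fell (3 under quantile normalization). Of the posterior ones 1 of 5 rose and 2 fell. The filter also counted embryo libraries, where the summed levels of the anterior and central lists were higher. Genes this low in both compared groups are hard to call, so the number of calls says little about Hox genes as a set. Hoxc10, a hindlimb gene, was at 0.769, 0.706 and 0.375 against 4.07, 5.62 and 5.92. Its neighbour Hoxc11 was listed at 0 in each transplant library and at 1.83, 4.33 and 3.52 in adult ones, a call lost on leaving out any one library but adult replicate 1. Hoxd13, of the distal limb and genitalia, was at 2.86, 3.35 and 5.22 after transplantation and listed at 0 in each adult library.

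Cell cycle genes moved in both directions. Of 35 genes of G2 and M phase, 6 rose and 1 fell (median 0.31). The rises were 17.1% of the list, against 27.3% over all genes. The summed level of the list was 34.1 to 68.9 FPKM in transplant and 16.8 to 32.7 in adult libraries. In teratoma it was 274 to 348 and in embryo libraries 782 to 1029. Genes this low in both compared groups are hard to call, so the share says little about the cell cycle. None of the rises remained under quantile normalization, 2 were counted without adult replicate 3 and 3 without transplant replicate 1. Cdk1, the mitotic kinase, was at 1.88, 0.828 and 0.745 against 0.0687, 0.527 and 0, with 14.4 to 15.1 in teratoma. S phase genes split evenly at 6 rises (3 under quantile normalization) and 6 falls (3 without adult replicate 1) of 32 tested. Each was 18.8% of the list, where 27.3% of all genes rose and 16.9% fell. Among the falls was Pcna, the sliding clamp of replication, at 26.5, 31.8 and 35 against 96.2, 98.4 and 108. Of 55 replication histone genes, near-identical copies that can share reads, 13 rose and none fell (0 at an unadjusted p under 0.05). The 13 were 23.6% of the list, where 27.3% of all genes rose. The summed level of the list was 326 to 429 FPKM against 126 to 164, and 1861 to 2345 in teratoma. Of 16 CDK inhibitors, D-type cyclins and partners, 8 rose and 1 fell (median 0.84). Cdkn2a, the locus of p16 and p19 (chromosome 4 from 89274471 to 89294653), was at 34.6, 28.7 and 21.4 after transplantation, listed at 0 in every adult library, and at 0, 3.46 and 2.08 in teratoma. Its neighbour Cdkn2b was at 14.4, 14.9 and 7.04 against 1.38, 1.41 and 0.976. Cdkn1a, the p21 inhibitor, ran the other way at 40.9, 52.6 and 58.5 against 156, 135 and 151. Ccnd2, a D-type cyclin of cell cycle entry, was at 43.4, 53 and 27.8 against 2.57, 3.76 and 1.83.

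Among signalling pathways, Hedgehog genes rose most often, 9 of 11 with 1 lower (median 1.19). Under quantile normalization 6 rose and the median was 0.71. The transducer Smo was at 49.2, 56.2 and 53.8 against 11.5, 10.8 and 11.4, and the coreceptors Cdon and Boc each rose by 1.55. The exception was Ptch1, the inhibitory receptor that is itself a target of the pathway, at 4.82, 5.38 and 6.22 against 9.24, 13.3 and 14.9, while the target Gli1 was higher at 8.47, 7.14 and 6.65 against 3.43, 3.90 and 4.09, both named after their values were seen. Of 42 genes of BMP and TGF-β signalling, 19 rose and 7 fell (median 0.52). The ligand Tgfb3 was at 54.2, 60.9 and 40.0 against 10.1, 8.74 and 8.43, the BMP target Id3 at 265, 246 and 272 against 49.2, 58.2 and 67.0, and Mstn, the inhibitor of muscle growth, at 7.22, 4.28 and 5.69 against 0.113, 0.111 and 0. Wnt genes had a median of 0.50. They rose in 13 of 38 (34.2% against 27.3% of all genes) and fell in 4 (10.5% against 16.9%), or 2 without transplant replicate 1. Their secreted modulators diverged, with Dkk3 at 24.2, 21.0 and 12.3 against 2.2, 2.02 and 1.32 and Sfrp5 at 0, 0 and 0.408 against 7.88, 11.8 and 6.65. Of 21 FGF genes, 7 rose (33.3%) and 6 fell (28.6%). The targets Etv4 and Dusp6 were among the rises (1.75 and 1.38) while the receptor Fgfr1 fell, and the 6 falls became 3 without adult replicate 3 or transplant replicate 1.

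Matrix genes rose in large shares. Of 39 genes of fibronectin, fibrillins and matricellular proteins, 33 rose and 1 fell (84.6% higher, where 27.3% of all genes were), with a median of 2.34. The gene that fell, named for that reason, was Ltbp1, which tethers latent TGF-β to the matrix. Fn1, fibronectin itself (chromosome 1 from 71585520 to 71653200), was at 529, 557 and 311 FPKM against 15.4, 19.2 and 18.6 (4.60, SE 0.24, adjusted p = 4.7e-07), 26.3-fold on the means. Postn, periostin, was at 369, 395 and 173 against 18.3, 16.7 and 15.7, and Mfap5, a microfibril protein, at 96.7, 106 and 81.2 against 2.70, 5.22 and 4.62. Fibrillar collagens and the enzymes that assemble them rose in 20 of 25 and fell in 1, Pcolce2 (median 1.48). Col1a2, a chain of the main collagen of tendon and scar, was at 2302, 1846 and 1491 against 296, 250 and 203. Of 19 other collagens 11 rose and 1, Col19a1, fell. The largest rises were those of Col8a1 (82.0, 103 and 57.6 against 3.62, 2.44 and 4.49) and Col12a1 (75.8, 83.6 and 45.7 against 3.05, 3.31 and 4.95).

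Basement membrane genes moved in both directions. Of 28 genes 14 rose and 4 fell (median 0.65), and the falls numbered 2 without any one adult library. The laminin chains Lama4 (35, 29.7 and 19 against 3.99, 3.93 and 4.22) and Lamb1 (60.6, 41.7 and 34.4 against 9.5, 10.1 and 6.84) were higher. Lama3, at 3.06, 1.31 and 5.58 against 21.4, 22.3 and 25.5, and Lamc3, at 0, 0.0235 and 0 against 4.98, 3.24 and 4.36, were lower, as was the laminin-binding integrin gene Itgb4 (-1.40, SE 0.35), although with a pseudocount of 0.1 its adjusted p was 0.094. Matrix proteases and their inhibitors rose in 13 of 29 and fell in 4, or 2 without adult replicate 2 or transplant replicate 1, with the collagenase activator Mmp14 at 240, 214 and 160 against 23.6, 23.5 and 20.4.

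Markers of fibroblasts and tendon moved with these matrix genes. Of 19 fibroblast and fibro-adipogenic markers 15 rose and none fell (median 1.87), and their summed level was 5281 to 7725 FPKM in transplant and 1757 to 2257 in adult libraries. Pi16, a marker of adventitial fibroblasts, was at 120, 75.6 and 66.9 against 10.2, 7.68 and 9.31. Cd248, endosialin, was at 76.5, 67.8 and 42.8 against 6.64, 9.06 and 6.86. Pdgfra, the receptor that defines fibro-adipogenic progenitors and was named after its values were seen, averaged 33.2 against 6.90. Of 12 tendon markers 11 rose and none fell (median 2.19), with a summed level of 1758 to 2032 against 505 to 558. The tendon transcription factor Scx was at 20.9, 21.5 and 11.4 against 1.24, 1.68 and 4.27, and tenomodulin, Tnmd, at 87.8, 52.8 and 35.9 against 5.55, 4.10 and 4.97. Tnmd and the tendon thrombospondin Thbs4 (426, 443 and 229 against 15.4, 25.2 and 32.0) were also higher than in teratoma cells, by 4.10 and 3.53. The marker and matrix lists share genes, among them Fbn1, Lum, Col12a1 and Thbs4, and the tendon list holds Egr1, which is also an immediate early gene. The part that fibroblast or tendon cells had in the matrix result was not tested.

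**Figure D3:**
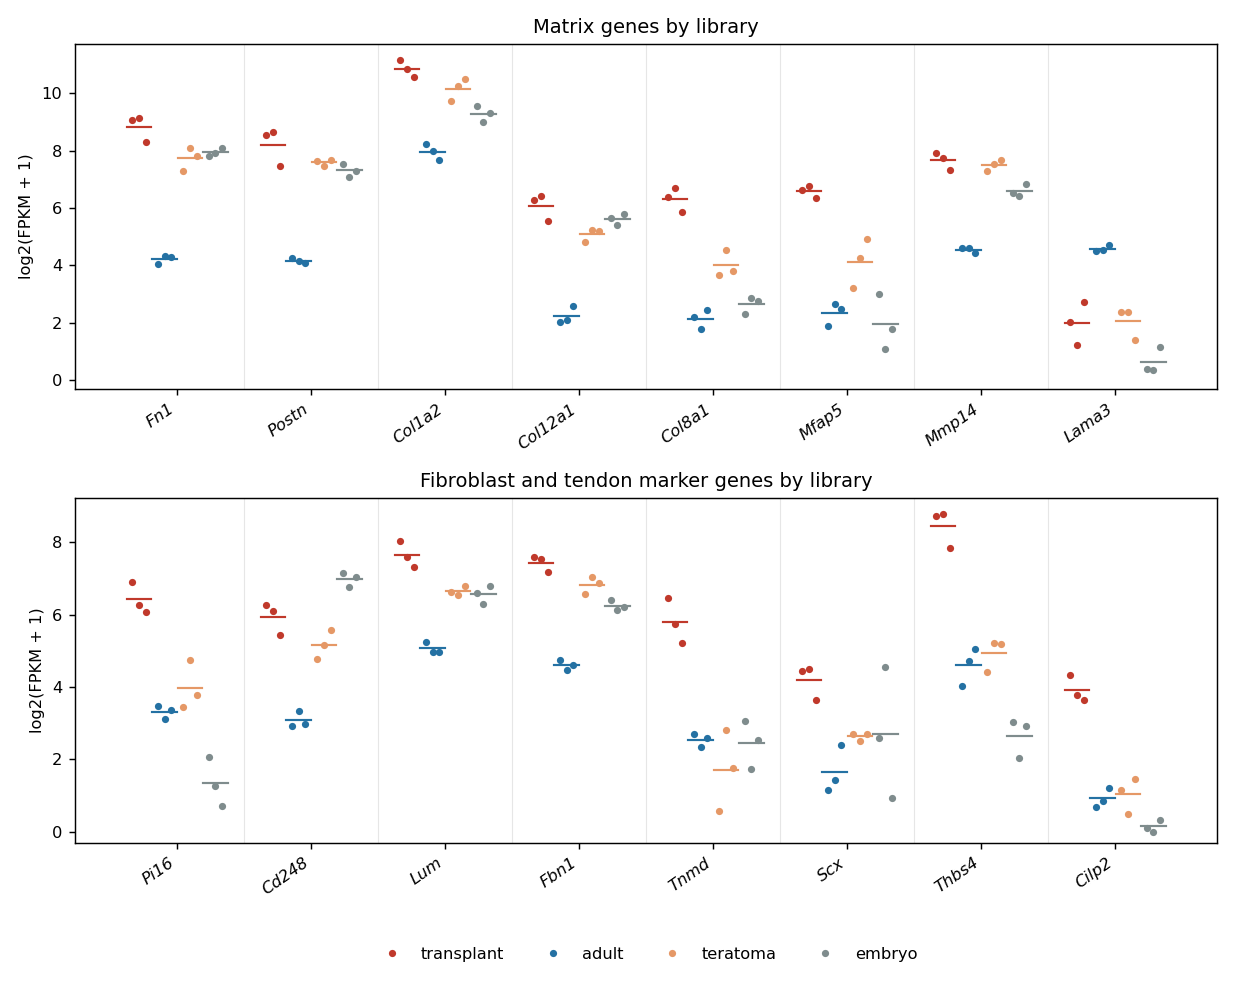
Matrix genes (top) and fibroblast and tendon markers (bottom) in the 12 libraries, with log2(FPKM + 1) on the y axis, points for libraries and bars for group means. Adult libraries lie below transplant libraries for each gene but Lama3, and transplant replicate 3, the right-hand point of each transplant set, is often the lowest of its group.

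The transplant libraries also differed among themselves in matrix genes. Replicate 3 was the lowest of the transplant libraries for 28 of the 33 fibronectin and matricellular genes that rose, 17 of the 20 fibrillar collagen genes, 13 of the 15 fibroblast markers and 7 of the 11 tendon markers. Over all 3462 genes that rose, it was the lowest for 46.3%. Among the 2150 genes that fell, replicate 1 was the nearest to adult for 15.7%, replicate 2 for 44.3% and replicate 3 for 40.0%. With replicate 3 left out, 33 of 39 fibronectin and matricellular genes and 15 of 19 fibroblast markers were called higher.

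Genes of ribosome production were lower as a group. All 23 tested genes of ribosome biogenesis and nucleolar RNA helicases were lower in transplanted cells, with a median of -1.73, where 16.9% of all genes were lower. The count was 22 or 23 in each of the 15 alternative analyses. Nucleolin, Ncl (chromosome 1 from 86344719 to 86359400), was at 36.2, 48.1 and 46.9 FPKM against 227, 204 and 268 (-2.39, SE 0.16, adjusted p = 1.7e-06), and 81.2 to 98.2 in teratoma. Nop56, of the particle that methylates ribosomal RNA, was at 12.9, 21.2 and 15 against 120, 119 and 116. Gnl3, nucleostemin, was at 11.3, 17.4 and 13.1 against 86.4, 76.9 and 71.8, and all 3 genes were also lower than in teratoma cells. Of 88 ribosomal protein genes, S6 kinases not counted, 26 were lower and 2, Rpl41 and Rps4y2, higher (median -0.305), but 49 were lower under median-ratio scaling and 6 under quantile normalization, so their number rested on the scaling. With the S6 kinases counted, 28 were lower, 14 without adult replicate 2 and 18 without transplant replicate 1. Myc, a known activator of ribosome genes that was named after its values were seen, averaged 80.1 against 207.

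Genes of the oxidative stress response fell more often than they rose. Of 22 oxidative stress genes 11 fell and 4 rose (median -0.69), with 7 falls without adult replicate 3. Hmox1, heme oxygenase (chromosome 8 from 75093621 to 75100589), was at 65.8, 112 and 105 against 1111, 1028 and 1322 (-3.63, SE 0.25, adjusted p = 1.7e-06), 12.2-fold lower on the means. Srxn1 (13.2, 33.0 and 37.0 against 326, 274 and 286), Txnrd1 (33.4, 58.4 and 53.8 against 334, 307 and 306) and Gclm (7.19, 5.01 and 8.67 against 47.8, 40.4 and 43.4), which maintain thioredoxin and glutathione, fell with it. Purine genes fell in 7 of 15, with Adss (-2.10, SE 0.26) and Ppat (-2.07, SE 0.32) of the synthetic route among the falls. They rose in 2, Gart and Prps2, or in 1 without adult replicate 1, adult replicate 2 or transplant replicate 3. Amino acid genes split at 9 lower and 8 higher of 20, with 5 higher without adult replicate 1, transplant replicate 1 or transplant replicate 3. The transporters Slc38a2 (61.8, 65.1 and 72.5 against 254, 242 and 236), Slc7a1 and Slc3a2 were lower, and the enzymes Phgdh and Asns were higher. Of 25 genes of glycolysis and lactate 6 rose and 4 fell (median 0). These shares, 24% and 16%, were close to the 27.3% and 16.9% over all genes, so the list as a whole did not stand out. The glycolytic regulator Pfkfb3 (1.38, SE 0.22) and the enzyme Tpi1 (1.28, SE 0.20) were higher, and the lactate carrier Slc16a1 (-2.43, SE 0.21) and the glucose carrier Slc2a1 (-1.53, SE 0.24) were lower. Of 20 hypoxia genes 4 rose (2 without transplant replicate 1) and 7 fell, and the angiogenic factor Vegfa, at 23.6, 28.2 and 22.4 against 102, 89.8 and 107, was among those that fell.

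Nuclear genes of oxidative phosphorylation leaned the other way. Of 78 subunit genes 41 rose and 1, Atp5b, fell (median 0.77), and 32 rose under median-ratio scaling. Ndufs7, of complex I, was at 54.7, 55.5 and 55.9 against 6.85, 6.11 and 5.90, and Cox6a2, a muscle subunit of cytochrome oxidase, at 2.73, 6.59 and 3.36 while listed at 0 in every adult library. Cholesterol genes split at 6 higher and 8 lower of 21, with 3 higher without adult replicate 3 or transplant replicate 1 and 5 lower without adult replicate 1, adult replicate 2 or transplant replicate 3.

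Immediate early genes, which cells switch on within minutes of a stimulus such as tissue digestion, rose more often than they fell in transplanted cells. Of 32 tested, 17 rose (53.1%, where 27.3% of all genes did) and 7 fell (21.9%, where 16.9% did), with a median of 0.71. The summed level of the list was 7294.8 to 8178.8 FPKM in transplant and 3658.8 to 3772.5 in adult libraries. Fos (chromosome 12 from 85473890 to 85477273) was at 943, 763 and 913 FPKM against 109, 114 and 122 (2.91, SE 0.18, adjusted p = 1.2e-06). Cyr61 (696, 635 and 624 against 112, 108 and 108) and Ctgf (354, 499 and 311 against 60.7, 63.1 and 75.7), matricellular targets of mechanical signalling, were also higher. Fosl1, a later member of the AP-1 family, was lower at 2.07, 7.52 and 3.34 against 28.6, 36.0 and 38.1. Of 23 chaperone genes 8 rose (34.8%) and 6 fell (26.1%), with a median of 0.00. The inducible Dnajb1 was at 541, 391 and 621 against 57.0, 71.8 and 73.9, and Hspa1a and Hspa1b, near-identical copies that can share reads, rose by 2.38 and 2.42. Socs3, the feedback inhibitor of cytokine receptors, was at 259, 202 and 257 against 46.7, 41.5 and 43.0. The NF-κB and cytokine genes fell in 11 of 26 (7 with a pseudocount of 0.1) and rose in 6 (3 without adult replicate 1). An example is Nfkb1, a subunit of NF-κB, at 9.995, 24 and 18.6 against 92.9, 98.2 and 73.5. The labels give no digestion times, and the part of handling in these values was not tested.

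**Figure D4:**
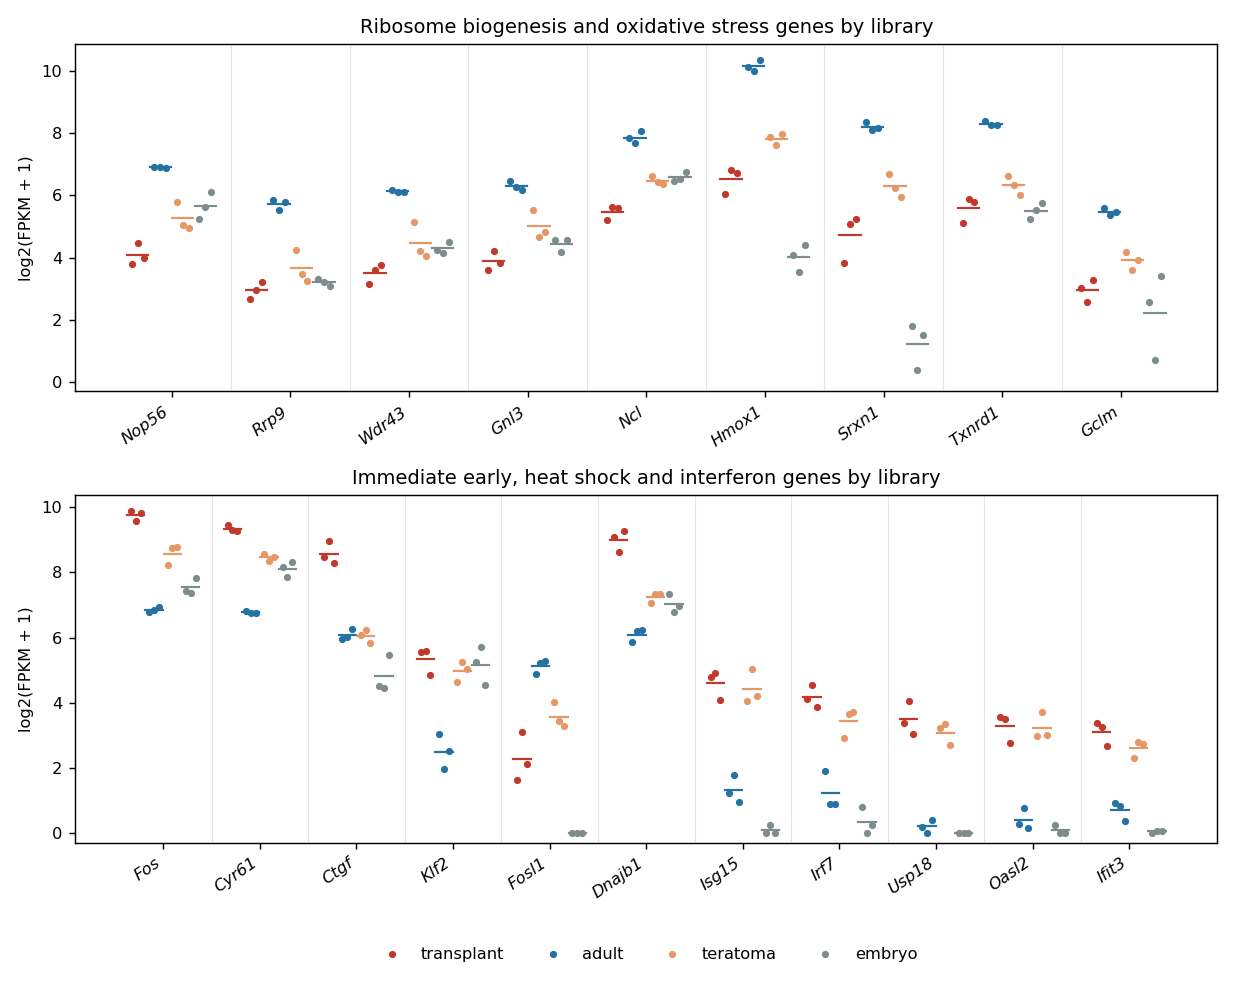
Ribosome biogenesis and oxidative stress genes (top) and immediate early, heat shock and interferon genes (bottom) in the 12 libraries, with log2(FPKM + 1) on the y axis, points for libraries and bars for group means. In the upper plot adult lies above transplant for every gene, and in the lower plot transplant lies above adult for every gene but Fosl1.

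Interferon-stimulated genes were higher after transplantation. Of 39 tested genes of MHC class I presentation and the interferon response, 24 rose and 3 fell (61.5% higher against 27.3% of all genes, median 1.21). Isg15, a ubiquitin-like modifier, was at 26.5, 29.3 and 15.8 FPKM against 1.35, 2.39 and 0.927 (3.28, SE 0.32, adjusted p = 1.6e-05). The transcription factor Irf7 was at 16.2, 22.4 and 13.5 against 2.70, 0.837 and 0.826, and Usp18, which removes Isg15 from proteins, at 9.46, 15.4 and 7.24 against 0.130, 0 and 0.322. None of these 3 differed from the teratoma cells by the test. B2m, the light chain of class I molecules, was called higher at a mean of 242 against 156, whereas the heavy chain H2-K1, whose reads may be shared with related H2 genes, was called lower at 47.1 against 95.5. Both were named after their values were seen, and the other falls were H2-Q4 and Nlrc5. Markers of leukocytes, which also carry interferon genes, rose in 8 of 17 and fell in none by limma (1 at an unadjusted p under 0.05). Median-ratio scaling and quantile normalization each gave 1 fall. The summed level over 23 genes was 38.4 to 76.4 FPKM against 9.22 to 23.4. The defining gene Ptprc stayed at or below 0.308. Cd74, of antigen-presenting cells, was at 6.98, 11.3 and 3.69 against 0, 0 and 0.659, and the part of such cells in the interferon values was not tested.

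Interferon genes are known to be switched on through a promoter motif, the interferon stimulated response element. It was searched as GAAA, any 2 bases and GAAA on both strands, overlaps allowed, in RefSeq windows (GRCm38.p6) from 250 bases before to 50 after each start. Of the 24 genes that rose, 20 had a window, and 12 of their 24 windows held a match, beside 1131 of all 32851 windows (3.44%). The list was chosen for its interferon and class I genes, and members that did not rise were not counted. The share therefore cannot tell whether the motif goes with the rise. The promoters of Isg15 (chr4:156200819-156201068, minus strand), Ifit3 (chr19:34583279-34583528, plus strand) and Irf7 (chr7:141266425-141266674, minus strand) are shown up to the base before the start, because all 3 genes rose, with 3, 2 and no matches. Sequences run 5′ to 3′ along the gene, and capitals mark the matches, which overlap in Isg15.
Isg15: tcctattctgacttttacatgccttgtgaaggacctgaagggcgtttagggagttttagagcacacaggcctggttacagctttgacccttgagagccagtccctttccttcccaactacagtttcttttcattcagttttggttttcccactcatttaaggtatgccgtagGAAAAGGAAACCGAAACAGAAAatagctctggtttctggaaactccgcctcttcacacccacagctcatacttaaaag
Ifit3: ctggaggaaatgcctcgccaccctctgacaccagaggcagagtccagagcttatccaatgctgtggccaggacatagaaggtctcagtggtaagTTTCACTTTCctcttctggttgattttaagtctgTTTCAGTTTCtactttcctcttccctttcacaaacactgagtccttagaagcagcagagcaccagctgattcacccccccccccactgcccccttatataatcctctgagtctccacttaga
Irf7: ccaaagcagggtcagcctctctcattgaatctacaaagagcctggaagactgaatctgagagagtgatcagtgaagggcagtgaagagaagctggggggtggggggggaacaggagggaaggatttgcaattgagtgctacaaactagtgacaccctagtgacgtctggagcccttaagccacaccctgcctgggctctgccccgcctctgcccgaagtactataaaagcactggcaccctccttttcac
In Isg15 the first bases of the matches lie at -78, -72 and -66 from the start on the strand of the gene, and in Ifit3 at -156 and -122, both on the opposite strand. Ifit3 was at 9.25, 8.50 and 5.30 FPKM against 0.866, 0.762 and 0.294 (2.39, SE 0.27). The absence of a match in Irf7 says only that these letters are not in the window.

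Markers of other cells that the sort might hold gave calls in both directions. Endothelial markers rose in 1 of 16 and fell in 4, with Cldn5 at 0.229, 0 and 0 against 4.38, 3.06 and 8.16. Mural and smooth muscle markers split at 4 and 4 of 12. Pdgfrb, shared by pericytes and fibroblasts, rose by 2.10 (SE 0.21), and the pericyte gene Rgs5 was lower at 6.55, 5.73 and 3.06 against 17.9, 12 and 16.1. No epithelial or endodermal marker of 15 tested was called by limma (0 at an unadjusted p under 0.05). The summed level over 22 listed genes was 0.728 to 11.2 in transplant and 1.99 to 4.17 in adult libraries, and 296 to 830 in teratoma. The filter also counted teratoma libraries. Genes this low in both compared groups could hardly be called, so the lack of calls says little. Adipocyte markers fell in 2 of 6, or in 1 without adult replicate 1, adult replicate 2 or transplant replicate 3. None of 7 erythroid genes was called by limma (1 at an unadjusted p under 0.05). Sums over 12 listed erythroid genes were 0.811 to 1.33 FPKM in transplant, 5.35 to 26.8 in adult and 387 to 2097 in embryo libraries. This lack of calls likewise says little. Hba-a2, a globin gene with a near-identical copy, was at 0, 0 and 0.308 against 2.28, 19.3 and 1.70 (adjusted p = 0.063) and was called lower in 6 of 15 alternatives.

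**Figure D5:**
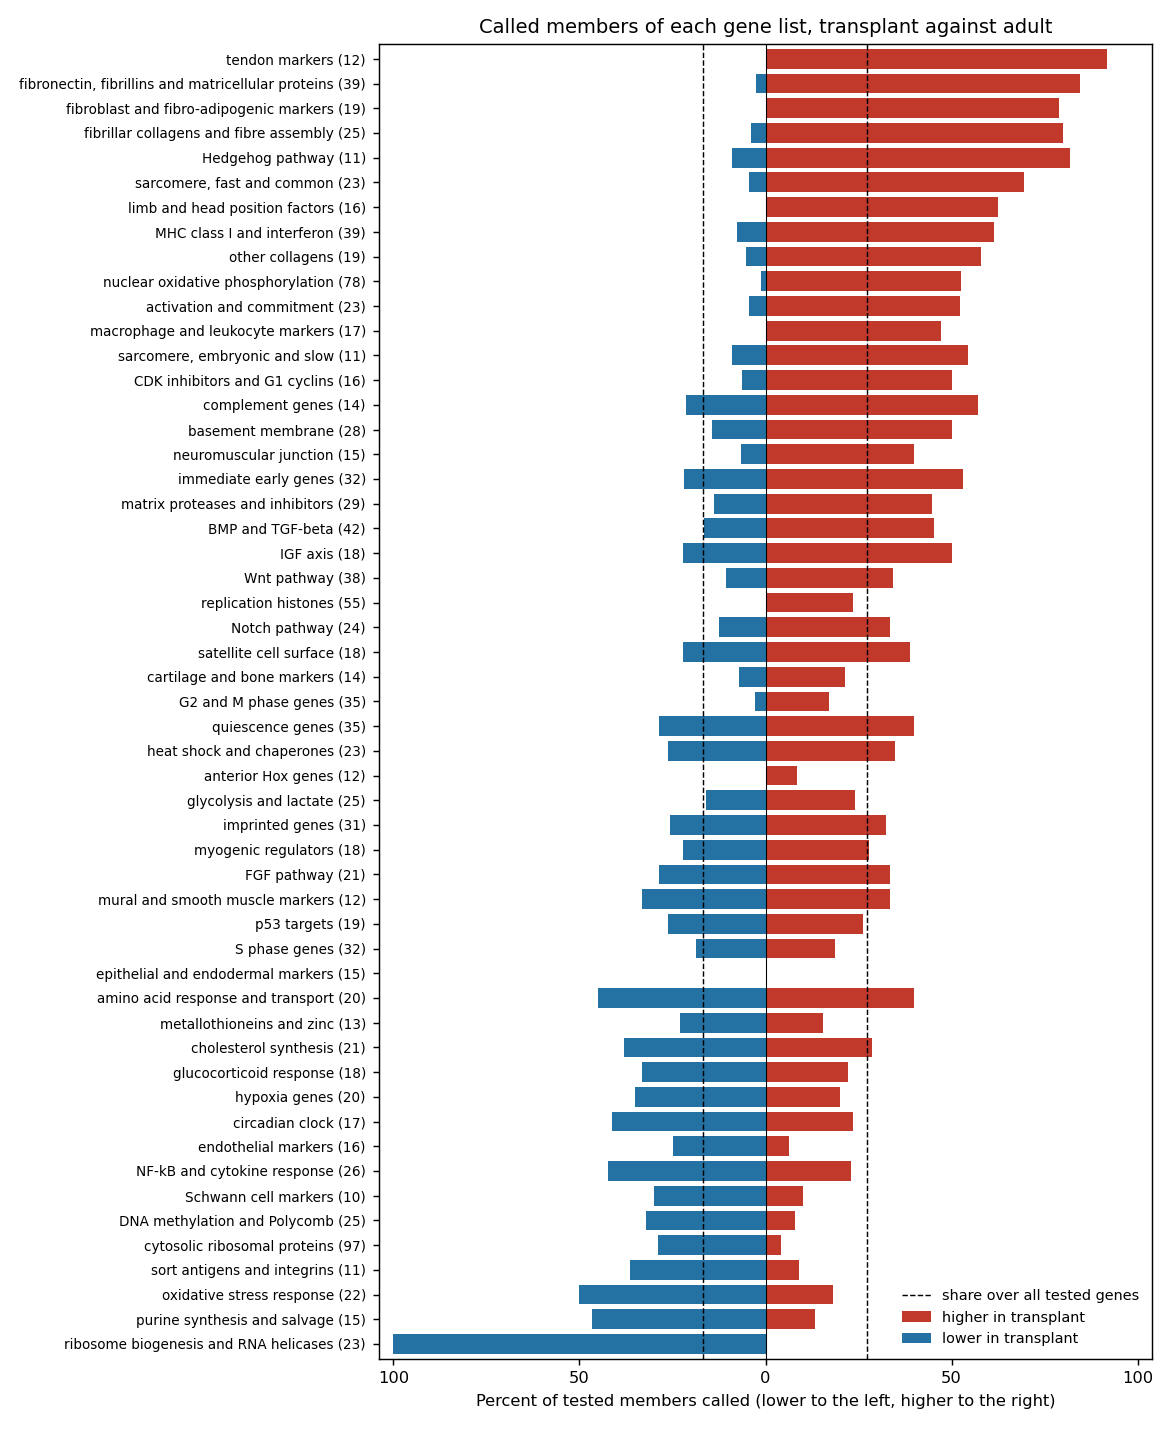
Share of the tested members of each gene list with at least 10 of them that was called higher (right, red) or lower (left, blue) in transplant against adult, in percent, with the number tested in brackets; dashed lines mark 27.3% and 16.9%, the shares over all tested genes. Tendon, fibronectin and Hedgehog lists reach furthest to the right, and ribosome biogenesis reaches 100% on the left.

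Against the teratoma cells from which they came, the transplanted cells differed in 2874 genes (22.6%), 531 higher (4.18%) and 2343 lower (18.5%), a comparison that shares the transplant libraries with the one above. This split rested on the scaling: it was 783 higher and 1469 lower with equal sums, 922 and 1203 with median-ratio scaling, and 1096 and 1309 with quantile normalization. The count was 1524 without teratoma replicate 1 and 1803 without transplant replicate 1. For Myod1 the teratoma libraries stood at 62.2, 37.1 and 51.9 FPKM, close to transplant and far from the adult level. For Hmox1 they stood at 233, 195 and 250, between transplant and adult. For Bhlhe41, a repressor of the clock and of myogenic factors, they stood at 2.68, 6.03 and 4.79, where transplant libraries were at 23.8, 29.3 and 21.6 and adult ones at 1.10, 0.411 and 1.12.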

How the data were processed

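The series measured total RNA of sorted mouse muscle progenitors in 12 libraries. Per the labels' protocols, collagenase II and dispase released the cells before sorting, RNeasy columns with DNase I gave the RNA, and the SMARTer Stranded Pico kit for total RNA gave the libraries. Named without roles in the submitters' processing notes are Cufflinks 2.2.1.0, TopHat 0.7, CASAVA 1.8.2, Partek and the build mm10. Per the file headers, the authors deposited FPKM values for each gene symbol in each library. The sources used here give no annotation, strand setting or depth, and the values keep no trace of depth, so no interval or detection limit is given. The 23746 entries were summed over 240 repeated symbols to 23284.

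Log2(FPKM + 1) values of genes at 1 FPKM or more in at least 3 libraries were fitted in R 4.3.3 with limma 3.58.1, in 1 model of 4 groups over 12 libraries with an intensity trend. Genes were called at an adjusted p under 0.05. Named genes were 11 set genes, the 15 with the largest rise and the 15 with the largest fall (called, groups not overlapping, the higher group mean at least 5 FPKM, and no predicted, histone, ribosomal protein, small RNA or mitochondrial genes), and up to 5 called members of each gene list by size of change. Others are marked in the text. The members and lists were chosen with earlier results of these data known. Replicate numbers did not pair the samples (same-number correlations of transplant and adult deviations 0.03, -0.04 and -0.005), so no block was used. Alternatives were another pseudocount, filters, scalings, weights, a block, a fit of the 2 groups alone, a minimum change and leaving out each library. The steps were tested on simulated data. Gene coordinates are from GENCODE M21.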

Additional observations from a re-analysis of the deposited data

How the results depend on the processing

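The number of genes called in transplant against adult stayed within 1.5 times of 5612 in each alternative, from 3856 with a log2 change of at least 1 to 6449 with library quality weights. Leaving out 1 library gave 4570 to 4970. With the replicate number as a block, 5398 genes were called against 5612 without it, and 2466 against 2874 for transplant against teratoma. The latter comparison gave 1623 genes with a log2 change of at least 1, and 1524 to 2344 without 1 library. Of the 273 named genes called by limma, all kept their sign in each of the 15 refits they could enter, and most also kept their call. Among calls lost, those of Chrnd, Hoxc11, Hist1h4a, Slc30a4, Vwf and Myl6b were lost without each of several libraries in turn. Quantile normalization ended 11 calls and made 2, and testing without a filter ended 12. The cause was not tested. Depth was unknown, so no detection limit can be given for low genes, and zeros may be failed estimates.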

Other observations

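Chromatin regulators leaned lower in transplanted cells. Of 25 DNA methylation and Polycomb genes 8 fell and 2 rose (median -0.29). Kdm6b, a histone demethylase that opposes Polycomb, was at 43.2, 64.8 and 71.6 FPKM against 202, 193 and 228 in adult cells, and Tet2, which oxidises methylated cytosine, at 9.30, 8.08 and 11 against 34.2, 28.1 and 31.4. Cbx7, a Polycomb subunit, was higher at 5.15, 5.09 and 4.98 against 0.707, 1.2 and 1.71.

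Genes of the circadian clock moved in both directions, 4 of 17 higher and 7 lower (median -0.10). The repressors Bhlhe40 (242, 248 and 223 against 31.2, 29.5 and 28.0) and Bhlhe41 were higher. The activator Arntl (8.40, 9.10 and 6.33 against 37.2, 35.3 and 32.9) and the repressor Cry1 (3.76, 7.05 and 5.52 against 33.7, 27.0 and 22.2) were lower. The labels give no time of day for any collection. Zinc carriers also diverged: Slc39a14 was at 19.4, 33.7 and 28.9 against 95.4, 98.9 and 103, and Slc39a13, known for its role in connective tissue, at 15.4, 17.0 and 16.8 against 0.80, 2.42 and 1.04. Complement genes rose in 8 of 14 and fell in 3, with the central component C3 at 5.15, 5.65 and 3.47 against 30.1, 32.5 and 26.2 and C1ra, of the initiating complex, at 29.6, 23.5 and 17.3 against 6.52, 8.28 and 3.01. The 8 rises became 4 without transplant replicate 1.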
